A study of Homo sapiens with 24 samples.

Results

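Solute carriers (SLC) are membrane proteins that move ions, nutrients, vitamins and metabolites across the plasma membrane and the membranes of organelles. The genes described here carried a name made of SLC, a family number, the letter A and a member number, and were selected on their measured level: the authors' mean normalised read count had to be at least 10 in each of the 4 tables that set an aneuploid cell line beside its parental line. Of 258 such names in any table, 175 met this rule, out of 11939 genes of all kinds that did. The members came from 39 families. They were sorted by family number into 12 groups after what the family is known to carry.

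The mRNA of 24 libraries was sequenced, 3 of each of 8 lines. HCT116 is a colorectal carcinoma line and RPE1 a retinal pigment epithelial line immortalised with telomerase. HCT116 5/4, which has 4 copies of chromosome 5, was set beside its parental HCT116. HCT116* 8/3 c7 is a single clone with 3 copies of chromosome 8, and its parental line HCT116* expresses the same H2B-GFP, a fluorescent histone that the asterisk marks. RPE1 5/3 12/3, with 3 copies each of chromosomes 5 and 12, was set beside RPE1, and RPE1* 21/3, with 3 copies of chromosome 21 and H2B-GFP, beside RPE1* with the same histone. HCT116 5/4 and its parental line came from another laboratory. The other extra chromosomes were brought in by microcell-mediated transfer, but the gain of chromosome 12 arose spontaneously.

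Cells take up glucose through the SLC2 family, exchange lactate through SLC16, and import amino acids through SLC1, SLC6, SLC7 and SLC38, of which several work as heterodimers or exchangers. Zinc enters the cytosol through SLC39 and leaves it through SLC30. Most members of the SLC25 family sit in the inner mitochondrial membrane. They carry nucleotides, phosphate, citrate, amino acids and cofactors between the matrix and the cytosol. The tables were compared for how the 2 cell types, and the lines of each type, differ in these genes.

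The value of each gene in a table is a mean over the 6 libraries of an aneuploid line and its parental line, so it has no spread between replicates, and no test was made. A difference between tables can lie in the aneuploid line, in the parental line or in both, and these cannot be told apart. The change of each line from its parent was not analysed here. The tables were normalised separately by the authors, and they were put on a common scale by medians of ratios over the 11939 genes (scaled mean count). Of paired values, the first is from HCT116 5/4 and the second from HCT116* 8/3 c7, or the first is from RPE1 5/3 12/3 and the second from RPE1* 21/3. Where such pairs are set against each other, HCT116 comes first. Differences are relative to the median gene. On another scale, the share of the table's sum, the median gene itself lay 0.35 (log2) towards HCT116.

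At the edge of the rule, SLC1A1 entered with an authors' mean of 10.05 in the RPE1 5/3 12/3 table, SLC22A4, SLC4A4 and SLC26A4 with 10.7, 11.2 and 11.7 in the HCT116* 8/3 c7 table. SLC25A27 with 9.53 and SLC34A3 with 9.48, both in the RPE1 5/3 12/3 table, stayed outside, as did SLC30A3 with 7.58 and SLC16A4 with 7.50.

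The tables listed 14292 to 15610 genes, and the factors that put them on a common scale ran from 0.825 to 1.11. Depth per library is unknown from them. The SLC members made up 1.10% to 1.27% of all means. Of 10 epithelial markers of the colon, 6 were higher in both HCT116 tables than in both RPE1 tables and 3, CDX1, VIL1 and CEACAM5, were listed in no table. Of 13 markers for RPE1, 11 were higher in both RPE1 tables, while RPE65, a defining enzyme of the pigment epithelium, was higher in the HCT116 tables and TYR was listed nowhere. Of the mesenchymal genes, VIM stood at 447 and 95.5 against 173038 and 133369 and FN1 at 1126 and 608 against 363353 and 452292, HCT116 tables first.

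Between the cell types, 39 of the 175 members met a 2-fold rule. Their share was above that of all genes towards HCT116 and below it towards RPE1. The 4 tables were asked which genes had the lower of their HCT116 values at least 2-fold above the higher of their RPE1 values, or the reverse. In the first direction were 24 of 175 members (13.7%), beside 9.52% of all 11939 genes. In the second were 15 members (8.57%), beside 10.9% of all genes, and 136 members met neither. On the scale of shares of the sum these counts were 39 and 9 (22.3% and 5.14%), beside 15.6% and 7.56% of all genes. The HCT116 side then held 81.2% of the members' calls in place of 61.5%, and 67.4% of the calls over all genes in place of 46.7%. With a minimum mean of 100 they were 8 and 9 of 133 members (6.02% and 6.77%), beside 5.37% and 9.43% of all genes, so that the share in HCT116 lay near that of all genes. Without the HCT116* 8/3 c7 table the second was 23 (13.1%), beside 12.7% of all genes. Without any other single table its share stayed below that of all genes. In such bulk samples fewer expressing cells and less RNA per cell cannot be told apart. The median absolute difference between the cell types was 0.70 (log2) for the members and 0.58 for all genes, and 42.9% of the members lay within 1.5-fold, beside 50.6% of all genes. Between the tables of a single cell type the median absolute difference was smaller, at 0.30 in HCT116 and 0.24 in RPE1, where all genes had 0.20 and 0.16. Across the 175 genes, which are not independent replicates, the levels of both HCT116 tables ranked alike (Spearman's rho 0.966), as did those of both RPE1 tables (0.976), and rho was 0.783 to 0.818 between tables of different cell types. The points share gene length and the counting of the reads.

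The largest differences towards HCT116 were those of a chloride, a zinc and a monoamine carrier. SLC12A7, the potassium chloride cotransporter KCC4, stood at 2289 and 1349 in the HCT116 tables and 212 and 28.2 in the RPE1 tables, which is 22.7-fold between the geometric means of the cell types. SLC39A4, the zinc importer of the intestinal epithelium, stood at 708 and 992 against 56.4 and 80.0, or 12.5-fold. SLC29A4, a transporter of monoamines and adenosine, had 796 and 798 against 44.5 and 105, or 11.7-fold. In the other direction SLC4A4, the sodium bicarbonate cotransporter NBCe1, had 14.6 and 10.0 against 333 and 449, which is 32.0-fold higher in RPE1. SLC38A6 (9.08-fold), SLC22A4, the ergothioneine transporter (9.03-fold), and SLC26A4, the anion exchanger pendrin (8.78-fold), followed. These folds are between geometric means. The HCT116 values of these 4 genes were at most 74.2, and those of SLC4A4 lay near the minimum of the rule. SLC22A4 (9.6) and SLC26A4 (10.5) also lay near it in the HCT116* 8/3 c7 table. Their HCT116 tables differed 4.06-fold and 7.08-fold, so their folds depend on that low value. By the lower RPE1 value over the higher HCT116 value, SLC26A4 had 1.64 (log2), below SLC4A8 (2.30) and SLC39A13 (2.12).

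**Figure D1:**
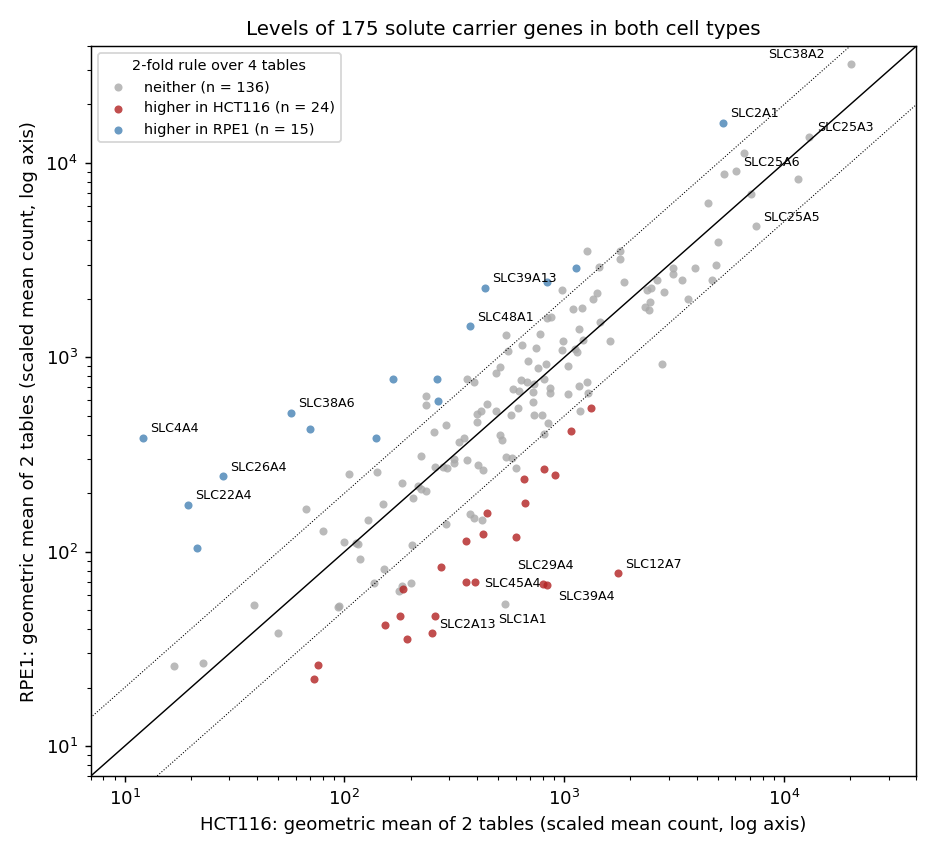
Geometric mean of the 2 HCT116 tables (x axis) against that of the 2 RPE1 tables (y axis) for 175 solute carrier genes, in scaled mean counts on log axes, with equality as a solid line and a 2-fold difference of these means as dotted lines. The 24 genes higher in HCT116 (red) lie below the line, with SLC12A7 farthest, and the 15 higher in RPE1 (blue) include SLC2A1 near the top. SLC1A1 lies far from the line without meeting the rule, since its RPE1 tables differ.

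Members of some families went to both sides. In 8 of the 39 families (SLC2, SLC4, SLC6, SLC9, SLC22, SLC25, SLC26 and SLC39) members were called in both directions, and in 22 families no member was called. The families called in both directions had 5 to 38 members, while 8 families had 1 member and could not be. Over all genes 9.52% were called towards HCT116 and 10.9% towards RPE1. Whether the family counts differ from what family size gives was not tested. By group, the median difference of HCT116 over RPE1 ran from 1.01 (log2) for vitamins and cofactors and 0.68 for sugars to −0.27 for zinc. The 6 group medians below 0 were above 0 on the scale of shares of the sum, among them zinc at 0.07, while the other 6 stayed above 0. The 6 carriers of iron, copper, magnesium and other metals differed least, from −0.30 to 0.11.

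**Figure D2:**
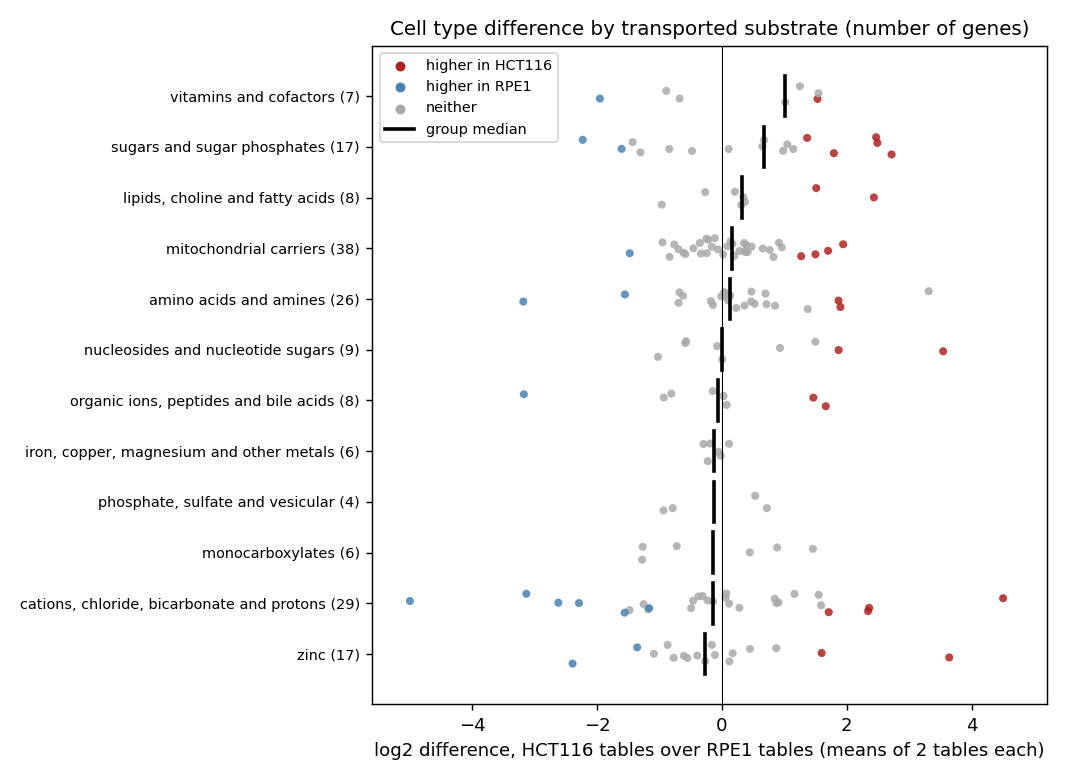
Log2 difference of the HCT116 tables over the RPE1 tables (x axis) for each member, by group (y axis, with the number of genes), coloured by the 2-fold rule, with group medians as black bars. Medians lie between −0.27 and 1.01, while single members reach from −5.00 (SLC4A4) to 4.50 (SLC12A7).

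The mitochondrial carriers were the group with the most members and, per kb of exon, with the largest summed level in all 4 tables. Per kb of exon, the 38 SLC25 genes made up 36.0% and 39.3% of the summed SLC level in the HCT116 tables and 34.9% and 31.0% in the RPE1 tables. When level was not divided by length they held 18.9% to 25.8%, below the 29.2% to 31.3% of the amino acid and amine carriers. Of the 38, 4 were higher in HCT116, 1 was higher in RPE1 and 33 met neither rule. Their median difference was 0.16 (log2), and the median absolute difference of 0.40 was below the 0.70 of all members.

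The ADP/ATP carriers, which exchange cytosolic ADP for matrix ATP, differed in which isoform led. SLC25A5 (ANT2) had scaled mean counts of 6793 and 8088 in the HCT116 tables and 5122 and 4338 in the RPE1 tables. SLC25A6 (ANT3) had 6127 and 5983 in the HCT116 tables and 9649 and 8554 in the RPE1 tables. For SLC25A5 both HCT116 values lay above both RPE1 values and for SLC25A6 the reverse, although neither reached the 2-fold rule. Of the summed level per kb of the 3 expressed isoforms, SLC25A5 held 51.8% and 56.7% in the HCT116 tables but 33.9% and 32.6% in the RPE1 tables, and SLC25A6 held 46.8% and 42.0% against 64.0% and 64.4%. SLC25A4 (ANT1), the isoform of heart and muscle, held 1.33% and 1.30% against 2.01% and 2.99%. SLC25A6 lies in the region shared by chromosomes X and Y, and reads of the similar coding parts of SLC25A5, SLC25A6 and their pseudogenes could have been assigned to either, so these shares are uncertain.

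SLC25A3, the phosphate carrier, stood at 12003 and 14162 in the HCT116 tables and 16163 and 11536 in the RPE1 tables and differed little between the cell types (-0.07). SLC25A1, the citrate carrier that feeds lipid synthesis, had 2114 and 2549 against 1778 and 1842. SLC25A39, which brings glutathione into the matrix, had 4159 and 5349 against 2402 and 2615, with both HCT116 values above both RPE1 values but under 2-fold apart. Among the carriers called higher in HCT116, SLC25A33, for pyrimidine nucleotides, had 396 and 500.4 against 149 and 167 (2.82-fold), and SLC25A32, for folate and FAD, 1132 and 1539 against 533 and 562 (2.41-fold). SLC25A21, for oxodicarboxylates, was low, at 81.7 and 64.1 against 31.8 and 15.6. SLC25A16 alone was called higher in RPE1, at 133 and 144 against 393 and 378. SLC25A32 shares 80.8% of its exon bases with other annotated genes and SLC25A21 30.3%, so part of their counts may belong to those. Outside the SLC names, a list for transport across the mitochondrial membranes held 8 expressed genes: BRP44L, BRP44, UCP2, MTCH1, MTCH2, VDAC1, VDAC2 and VDAC3. Of these 0 were called, beside 9.52% of all genes towards HCT116 and 10.9% towards RPE1. VDAC1, the main outer membrane channel, had 7804 and 6617 against 6790.2 and 5568.

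**Figure D3:**
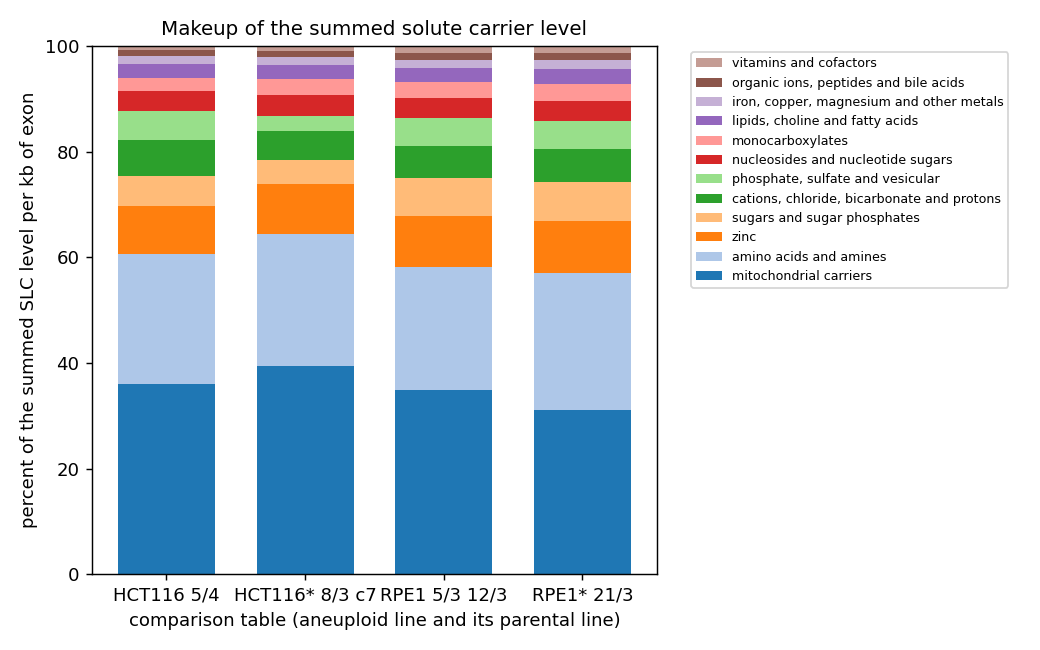
Percent of the summed SLC level per kb of exon (y axis, from 0) held by each of the 12 groups in the 4 comparison tables (x axis). Mitochondrial carriers (bottom) take 31.0% to 39.3% and amino acid and amine carriers 23.2% to 26.0% in every table.

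Amino acid and amine carriers held 23.2% to 26.0% of the summed level per kb. Of 26 members, 2 were called higher in HCT116, 2 higher in RPE1 and 22 neither. SLC38A2, the sodium-coupled importer of glutamine and alanine that responds to amino acid supply, stood at 17446 and 23479 in the HCT116 tables and 40349 and 26114 in the RPE1 tables, and ranked 2 of the 175 members by level per kb. SLC38A1, its close relative, had almost the same value in every table, 6957 and 7175 against 7131 and 6661. SLC1A5, a glutamine exchanger of proliferating cells, had 4637 and 5217 against 2294 and 3919, and the RPE1 5/3 12/3 table was the lowest.

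SLC7A5 (LAT1) exchanges glutamine for leucine and needs SLC3A2 (CD98) as its heavy chain. SLC7A5 stood at 10959 and 12091 in the HCT116 tables and 4053 and 16998 in the RPE1 tables. SLC3A2 stood at 5365 and 4683 in the HCT116 tables and 2545 and 5979 in the RPE1 tables. For both, the lowest and the highest value were the 2 RPE1 tables, with the HCT116 tables between them. Per kb, SLC7A5 was 2.74, 3.46, 2.14 and 3.81 times SLC3A2 in the 4 tables. The size of these ratios depends on the gene length used, since SLC3A2 has 6392 bases of joined exons but 1885 in its canonical transcript. The tables also list the pseudogenes SLC7A5P1 and SLC7A5P2, with which SLC7A5 may share reads. SLC7A11, the cystine importer that supplies glutathione synthesis, differed within HCT116, at 5401 in the HCT116 5/4 table and 1049 in the HCT116* 8/3 c7 table, with 1958 and 2528 in RPE1 between them.

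Carriers called higher in HCT116 were SLC6A17, a vesicular carrier of neutral amino acids, at 676 and 653 against 104 and 304, and the orphan SLC6A16, at 149.8 and 157 against 49.9 and 35.4. Those called higher in RPE1 were SLC38A6, at 67.6 and 48.6 against 593 and 457, and SLC6A9, the glycine importer GLYT1, at 292 and 238 against 671 and 894. SLC6A9 was among 6 genes that fell short of 2-fold on the scale of shares of the sum; the others were SLC2A1, SLC39A1, SLC4A7, SLC9A7 and SLC9A9. Among enzymes of amino acid metabolism, ASNS, asparagine synthetase, had 4382 and 2842 against 507 and 2016, lowest in the RPE1 5/3 12/3 table like SLC7A5 and SLC3A2, and GLUL, glutamine synthetase, had 3635 and 3932 against 2650.3 and 1283, lowest in the RPE1* 21/3 table. Neither ASNS nor GLUL met the rule.

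Among 17 sugar and sugar phosphate carriers, 5 were called higher in HCT116 and 2 in RPE1. SLC2A1, the glucose importer GLUT1, stood at 6352 and 4379 in the HCT116 tables and 15323 and 16880.3 in the RPE1 tables, 3.05-fold higher in RPE1. It held 75.4% and 70.1% of the summed SLC2 level per kb in HCT116 and 87.2% and 87.6% in RPE1. SLC2A3, the high-affinity GLUT3, had 512 and 109 against 659 and 613, with the HCT116* 8/3 c7 table below the other 3, and its counts may be shared with its near copy SLC2A14. SLC2A12, another glucose carrier, had 196 and 141 against 725 and 834 and was called in RPE1 too, with 51.2% of its exon bases shared with TBPL1.

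The members called in HCT116 were not the main glucose importers. SLC2A13, a proton-coupled carrier of myo-inositol, had 244 and 258 against 29.8 and 48.8 (6.58-fold). SLC2A6, a carrier of lysosomal membranes, had 374 and 492 against 112 and 137. SLC45A4 and SLC45A1, related to plant sucrose carriers, had 389 and 398 against 55.0 and 89.3 and 302 and 219 against 37.5 and 57.6. SLC5A6, placed here by its family, takes up biotin and pantothenate and had 893 and 1285 against 402 and 430.1. SLC50A1 had 740.3 and 849 against 477 and 536 and SLC5A3, the sodium-coupled importer of myo-inositol on chromosome 21, 2939 and 1088 against 3112 and 3308. HK1, the hexokinase that traps glucose in most tissues, was called higher in RPE1 like SLC2A1, at 2388 and 2126 against 6476 and 7627, while HK2 had 999 and 1142 against 1200.3 and 1623.

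None of the 6 monocarboxylate carriers met the rule. SLC16A3 (MCT4), the lactate exporter of glycolytic cells, had 4528 and 6219 in the HCT116 tables and 8340.5 and 9218 in the RPE1 tables. SLC16A1 (MCT1), which carries lactate both ways, had 3449.6 and 3379.6 in the HCT116 tables and 2392 and 2626 in the RPE1 tables. Both RPE1 values of SLC16A3 lay above both HCT116 values and the reverse held for SLC16A1. Per kb the ratio of SLC16A3 to SLC16A1 was 0.902 and 1.26 in the HCT116 tables and 2.40 and 2.41 in the RPE1 tables. The size of this ratio depends on the gene length used. With the canonical transcripts SLC16A3 had a mean of 2723 per kb over the 4 tables and SLC16A1 789, in place of 766 and 467. SLC16A14, the third by level per kb, had 191 and 289 against 543 and 599.8. Of their chaperones, BSG (basigin) was even across tables, at 12679.7 and 13065 against 14929.8 and 14329, and EMB (embigin), a gene of chromosome 5, had 1694 and 565 against 2174 and 2204.

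Zinc carriers held 9.01% and 9.35% of the summed level per kb in HCT116 and 9.79% and 9.83% in RPE1. Of 17, 2 were called in each direction, all 4 of them importers of the SLC39 family. In HCT116 these were SLC39A4, given above, and SLC39A11, at 683 and 963 against 238 and 302 (3.03-fold). In RPE1 they were SLC39A13, a carrier of the secretory pathway needed for connective tissue, at 482 and 392 against 2102 and 2479 (5.25-fold), and SLC39A1, a plasma membrane importer, at 1091 and 1171 against 2949 and 2849 (2.56-fold). SLC39A1 shares 69.1% of its exon bases with other genes. The most highly expressed per kb were SLC39A6, at 3647 and 3628 against 1819 and 2175, SLC39A1 and SLC39A14, which also carries iron and manganese, at 3485 and 4399 against 2520.3 and 3263.

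All 6 SLC30 members were lower in HCT116 relative to the median gene, by 0.16 to 1.09 (log2), and none was called. On the scale of shares of the sum, SLC30A5 and SLC30A6 lay on the other side. Outside the rule, SLC30A3 went the other way, with authors' means of 340 and 387 against 12.5 and 7.58. SLC30A1, the exporter of the plasma membrane, had 341 and 384 against 851 and 699.7. Among zinc-buffering metallothioneins MT1F was called higher in HCT116, at 124 and 52.7 against 22.0 and 17.6. MT2A had 8814 and 4072 against 18284 and 17132 and was lowest in the HCT116* 8/3 c7 table.

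The other metal carriers differed little. SLC41A1, a magnesium carrier, had 1393 and 1526 against 1324 and 1729.9, SLC31A1, the copper importer CTR1, 1096 and 1202 against 1014 and 1109, and SLC41A3 686 and 832 against 834 and 939. SLC11A2, the iron importer DMT1, had 930.1 and 1054 against 1293 and 1142. In these 4 genes no 2 tables lay as much as 2-fold apart.

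Ion carriers formed a group of 29 with 4 called higher in HCT116 and 6 higher in RPE1, and its median absolute difference of 1.16 (log2) was above the 0.70 of all members. SLC4A2, the anion exchanger AE2, had the highest level per kb of the group, at 4726 and 4311 against 6174 and 6272. Besides SLC12A7, those called in HCT116 were SLC26A11, a sulfate carrier, at 346 and 370.0 against 69.3 and 70.2, SLC4A11, at 635 and 574 against 122 and 116, and SLC9A3, the apical sodium proton exchanger NHE3 of gut and kidney, at 391 and 193 against 85.2 and 82.7. Besides SLC4A4 and SLC26A4, those called in RPE1 were the bicarbonate cotransporters SLC4A8, at 78.5 and 61.9 against 476 and 386, and SLC4A7, at 974 and 709 against 2353 and 2542, and the organellar proton exchangers SLC9A9, at 11.9 and 38.3 against 125 and 87.5, and SLC9A7, at 264 and 271 against 586 and 612.

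Other ion and phosphate carriers named here did not meet the rule. SLC12A4 (KCC1), a relative of SLC12A7 in potassium chloride export, had 1186 and 806 against 1997 and 2473, with both RPE1 values above both HCT116 values. SLC12A2 (NKCC1), which imports sodium, potassium and chloride, had 3747 and 2079 against 1063 and 810.3, the other way round. SLC26A2, the sulfate importer needed in cartilage, had 1750.2 and 918 against 3342 and 3739.7. The phosphate importers SLC20A1 and SLC20A2 had 10555 and 4065 against 11548 and 11079.5 and 639.8 and 1086 against 1188 and 2142, and SLC17A5, which exports sialic acid from lysosomes, 1209 and 1128 against 556 and 905.

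Of 9 nucleoside and nucleotide sugar carriers, 2 were called, both in HCT116. Besides SLC29A4 this was SLC29A2 (ENT2), at 788 and 1046 against 221 and 279 (3.65-fold). SLC29A1 (ENT1), its relative, had 1153 and 1782 against 2967 and 2869, so that the equilibrative nucleoside carriers of the cell surface stood on opposite sides. Per kb of joined exons SLC29A1 had the higher level in 3 of the 4 tables. With the canonical transcripts its mean over the 4 tables was 1053 per kb, against 238 for SLC29A2. SLC35A4 had 1289 and 1132 against 1896 and 1709, and SLC35A1, the CMP-sialic acid carrier of the Golgi, 556 and 597 against 281 and 325, with 55.5% of its exon bases shared with an overlapping gene.

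Among vitamin and cofactor carriers SLC48A1, which moves heme out of endosomes and lysosomes, was called in RPE1, at 345 and 404 against 1579.6 and 1327 (3.88-fold). SLC23A3, a low orphan member of the vitamin C family, was called in HCT116, at 79.7 and 71.7 against 22.2 and 30.9, with 47.9% of its exon bases shared. SLC23A2, a vitamin C importer, had 778 and 978 against 1625 and 1613. SLC19A1, the reduced folate carrier, had 716 and 922 against 326 and 497, and SLC19A2, for thiamine, 343 and 402 against 134 and 183, in each case with both HCT116 values above both RPE1 values.

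Lipid carriers had 2 of 8 members called in HCT116, SLC27A3 at 174 and 215 against 53.1 and 24.1 and SLC44A3 at 157 and 216 against 78.0 and 53.6. The highest per kb, SLC44A2, a choline transporter-like protein, had 1922 and 1686 against 2996 and 4112, followed by SLC27A4, a fatty acid transport protein with acyl-CoA synthetase activity, at 960.5 and 1132 against 807 and 1011, and SLC44A1 at 2319 and 2598 against 1958 and 1916. Of 8 carriers of organic ions, peptides and bile acids, SLC22A18 and SLC22A23 were called in HCT116, at 387 and 331 against 115 and 111 and 737 and 581 against 208 and 269.7, and SLC22A4 in RPE1. SLC10A3 and SLC15A4 led this group per kb, at 331 and 458 against 696 and 794 and 529.6 and 489 against 979 and 812.

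Within HCT116, 8 members were at least 2-fold higher in the HCT116 5/4 table than in the HCT116* 8/3 c7 table (4.57%, beside 2.61% of all genes) and 1, SLC9A9, was at least 2-fold lower (0.571%, beside 1.01%). With a minimum mean of 100 these counts were 5 and 0 of 133 (3.76% and 0%, beside 1.66% and 0.463% of all genes). SLC7A11 differed by 2.36 (log2), from 5401 and 1049. SLC2A3 differed by 2.24 and SLC5A3 by 1.43. SLC20A1 had 10555 in the HCT116 5/4 table and 4065 in the HCT116* 8/3 c7 table, and SLC6A6, the taurine importer, 4413 in the HCT116 5/4 table and 1571 in the HCT116* 8/3 c7 table. Values were low for SLC26A4, at 74.2 and 10.5 and SLC22A4, at 39.0 and 9.6. SLC9A3 (391 and 193) and SLC22A4 lie on chromosome 5, which HCT116 5/4 gained. For SLC20A1, SLC5A3 and SLC2A3 the RPE1 values lay close to that of HCT116 5/4, so that the HCT116* 8/3 c7 table was the one apart. The HCT116* 8/3 c7 table also holds the GFP-expressing parental line, and the part of the stock, the histone and the chromosome in these differences was not tested. SLC6A6 was named after its values were seen.

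Within RPE1, 4 members were at least 2-fold higher in the RPE1 5/3 12/3 table than in the RPE1* 21/3 table (2.29%, beside 0.779% of all genes) and 6 were at least 2-fold lower (3.43%, beside 1.24%). With a minimum mean of 100 these counts were 0 and 4 of 133 (0% and 3.01%, beside 0.242% and 0.484% of all genes). Of the 6, 5 were amino acid carriers. SLC1A1, the glutamate and cysteine importer EAAC1, had 9.92 in the RPE1 5/3 12/3 table and 295 in the RPE1* 21/3 table, with 656 and 441 in HCT116. Its value in the RPE1 5/3 12/3 table was thus the only low one, and it also lay at the edge of the rule. SLC7A5 differed by -2.07 (log2), SLC6A17 by -1.55, SLC1A4, an exchanger of alanine, serine and cysteine, by -1.40, with 274 and 726, and SLC3A2 by -1.23. ASNS differed by -1.99. The sixth carrier was SLC29A4, at 44.5 and 105.

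Other amino acid importers were closer together. SLC1A5 differed by -0.77. SLC38A2 was higher in the RPE1 5/3 12/3 table, by 0.63, SLC38A1 differed by 0.10, and SLC7A11 by -0.37. Over the 26 amino acid carriers the median difference was −0.26, and 15 of them were below 0, beside 113 of all 175 members. The 4 genes higher in the RPE1 5/3 12/3 table had low values in the RPE1* 21/3 table: SLC12A7 (212 and 28.2), SLC16A6 (139 and 31.7), SLC27A3 (53.1 and 24.1) and SLC25A21 (31.8 and 15.6). SLC12A7 lies on chromosome 5, which RPE1 5/3 12/3 gained. SLC1A4 and SLC16A6 were named after their values were seen.

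**Figure D4:**
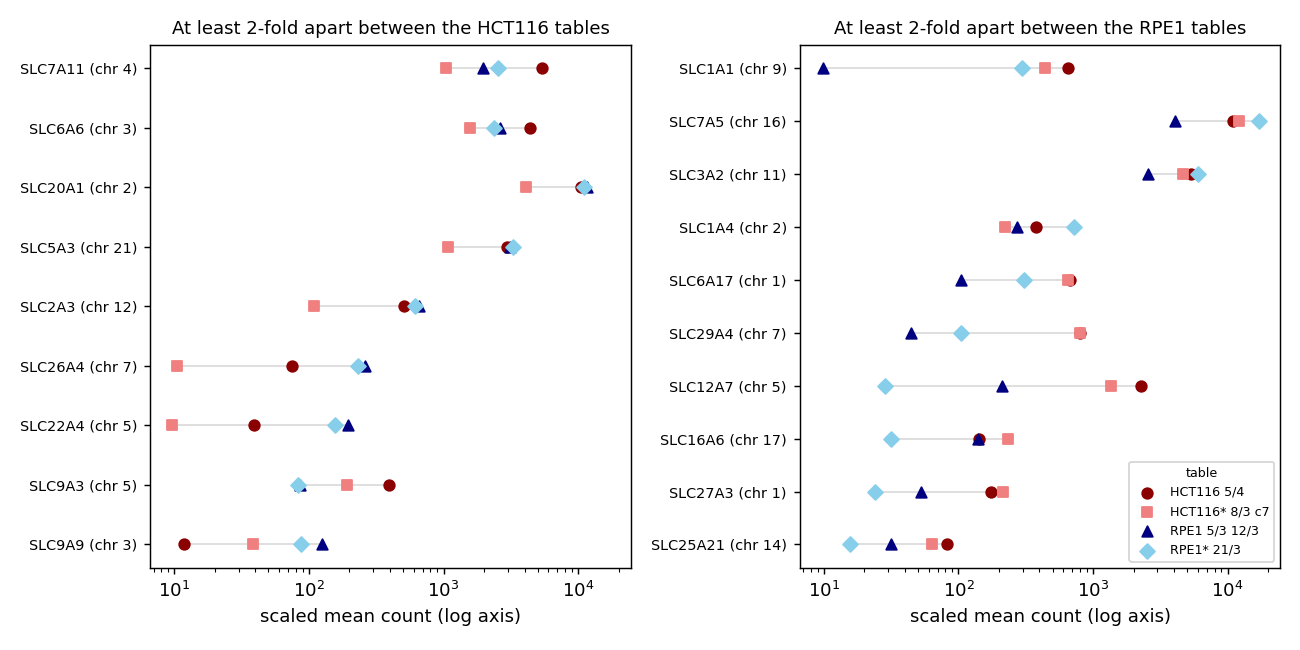
Scaled mean counts (x axis, log scale) in the 4 comparison tables, one symbol per table, for the 9 genes at least 2-fold apart between the HCT116 tables (left) and the 10 genes at least 2-fold apart between the RPE1 tables (right), with the chromosome of each gene. In the left panel the HCT116* 8/3 c7 table (pale squares) is the lowest for SLC7A11, SLC6A6, SLC20A1, SLC5A3, SLC2A3, SLC26A4 and SLC22A4. In the right panel the RPE1 5/3 12/3 table (dark triangles) is the lowest for SLC1A1, SLC7A5, SLC3A2, SLC6A17 and SLC29A4.

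The gained chromosomes carried 32 of the members, and most of them were higher in the table with the extra copies. A table mixes an aneuploid line with its parental line, so with 2 copies taken for the parent an extra copy in the line makes a mean of 2.5 copies, and the 4 copies of HCT116 5/4 make 3. The ratio of mean copy number of the tables is then 0.58 (log2) for chromosome 5 in HCT116 and 0.32 for each other gain. The tables compared also differ in the parental stock and, in both cell types, in H2B-GFP.

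On chromosome 5 all 11 members were higher in the HCT116 5/4 table than in the HCT116* 8/3 c7 table, by 0.09 to 2.02 (log2), with a median of 0.53. The median of all 508 genes of the chromosome was 0.42, with 78.7% of them above 0. The members were SLC22A4 (2.02), SLC9A3 (1.02), SLC26A2 (0.93), SLC12A2 (0.85), SLC12A7 (0.76), the carnitine importer SLC22A5 (0.53), the lysosomal amino acid exporter SLC36A1 (0.49), the mitochondrial SLC25A46 (0.43), the lysosomal arginine sensor SLC38A9 (0.34), SLC35A4 (0.19) and the Golgi zinc carrier SLC30A5 (0.09). SLC12A2 had 3747 in the HCT116 5/4 table and 2079 in the HCT116* 8/3 c7 table, and SLC30A5 1199 in the HCT116 5/4 table and 1129.7 in the HCT116* 8/3 c7 table. The 158 members outside chromosomes 5 and 8 had a median of −0.09.

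The 6 members on chromosome 8 were all lower in the HCT116 5/4 table than in the HCT116* 8/3 c7 table, which holds the 3 copies, with a median of −0.39. All 386 genes of the chromosome had −0.15, with 32.9% of them above 0. SLC20A2 had -0.76, SLC39A4 -0.49, SLC25A32 -0.44, SLC39A14 -0.34, the mitochondrial iron importer SLC25A37 -0.33 and SLC45A4 -0.03. SLC39A14 stood at 3485 in the HCT116 5/4 table and 4399 in the HCT116* 8/3 c7 table. SLC45A4 lay closer to 0 than the median of the members on other chromosomes.

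In RPE1 the same 11 genes of chromosome 5 had a median of 0.17 in the RPE1 5/3 12/3 table over the RPE1* 21/3 table, with 8 above 0, and all 508 genes had 0.27, with 82.1% of them above 0. SLC12A7 was far above the rest, at 2.91, followed by SLC12A2 at 0.39 and SLC30A5 at 0.36. SLC36A1 (-0.30), SLC26A2 (-0.16) and SLC22A5 (-0.11) lay below 0. SLC12A7 was thus higher in the table with extra copies in both cell types, with 2289 and 1349 and 212 and 28.2.

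On chromosome 12, 11 of 13 members were higher in the RPE1 5/3 12/3 table, with a median of 0.22. All 618 genes there had 0.27, with 83.2% of them above 0. They included SLC38A2 (0.63) and SLC25A3 (0.49), which ranked 2 and 7 of the 175 members by level per kb. SLC4A8 (0.30), SLC15A4 (0.27), SLC41A2 (0.25), SLC48A1 (0.25), the mitochondrial sodium calcium exchanger listed as SLC24A6 (0.22), SLC16A7 (0.20), SLC11A2 (0.18), SLC38A1 (0.10) and SLC2A3 (0.10) followed. SLC2A13 (-0.71) and SLC26A10 (-0.57), which is now annotated as a pseudogene and shares 73.3% of its exon bases with other genes, were lower. On chromosome 21, SLC19A1 (-0.61) and SLC5A3 (-0.09) were both lower in the RPE1 5/3 12/3 table than in the RPE1* 21/3 table with the 3 copies, and all 103 genes had a median of −0.41, with 2.91% of them above 0. The 149 members on other chromosomes had −0.12.

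**Figure D5:**
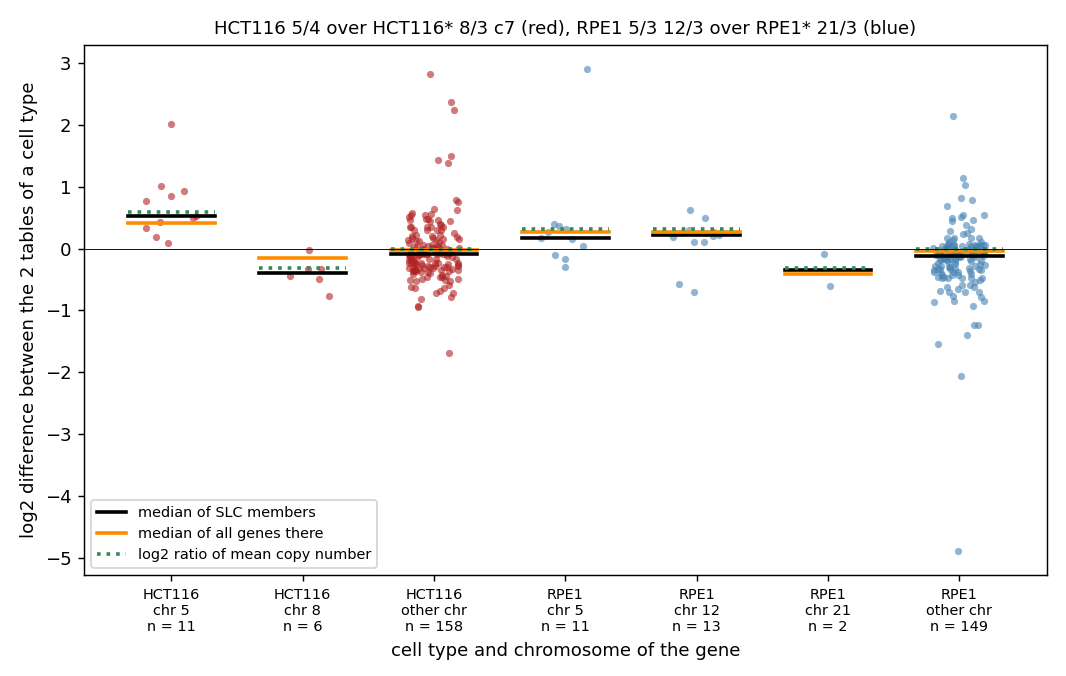
Log2 difference between the tables of a cell type (y axis) for each solute carrier gene, by cell type and chromosome (x axis), with the median of the SLC members (black), of all genes there (orange) and the log2 ratio of mean copy number (green, dotted). In HCT116 the medians of the members are 0.53 on chromosome 5 and −0.39 on chromosome 8, and in RPE1 they are 0.17, 0.22 and −0.35 on chromosomes 5, 12 and 21.

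The 83 SLC names outside the rule included carriers of a single cell type. Of these, 27 had an authors' mean of at least 10 in both HCT116 tables and in no RPE1 table, and 19 of the 27 were listed in neither RPE1 table. Another 15 had it in both RPE1 tables only, 10 of them listed in neither HCT116 table. A further 24 were below 10 or not listed in every table, and 17 had other patterns. The HCT116 tables also held more genes of all kinds with a mean of at least 10, 13887 and 13869 against 13278 and 13101. The share of all genes with these patterns was not counted, so the excess in HCT116 is not a result about SLC genes. The following were named after their values were seen. SLC22A31 had authors' means of 931 and 789 in the HCT116 tables, SLC38A5, a glutamine carrier, 738 and 971, and SLC7A2, a cationic amino acid carrier, 502 and 645. None of these 3 was listed in an RPE1 table. In the RPE1 tables SLC6A15, a carrier of branched-chain amino acids, had 792 and 332, and SLC8A1, the sodium calcium exchanger, 410 and 508, and neither was listed for HCT116. SLC37A1, on chromosome 21, had 318 and 360 in HCT116 and 26.1 in the RPE1* 21/3 table, and was not listed in the RPE1 5/3 12/3 table.

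Counting was by exon without a stated use of strand. Of the 175 members, 61 share exon bases with another protein-coding gene and 17 share at least 20%. Without these 17, the 2-fold rule between cell types called 21 of 158 members for HCT116 (13.3%) and 13 for RPE1 (8.23%). Of all genes, with none left out, 9.52% and 10.9% were called.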

How the data were processed

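Libraries were made with a TruSeq kit for Illumina sequencing. Per the study's methods, the authors cut adapters off with cutadapt and aligned the reads by TopHat 2.0.10 to hg19, allowing a single location for each, after which featureCounts 1.4.3 counted reads over RefSeq exons and DESeq2 was run once per aneuploid line and parent. Each of the 4 deposited tables gives a mean signal per gene, the authors' average of size-factor normalised counts across 6 libraries. The deposited log2 fold changes, standard errors, statistics and p-values are results of the authors' comparisons and were not used. Values of single libraries were not analysed here, so no test, interval or replicate error is given.

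Members have a mean of at least 10 in all tables. Tables were scaled by medians of ratios over the genes that meet this minimum. A gene was called between cell types when the lower value of a type was at least 2-fold above the higher value of the other type, and within a type at 2-fold between its tables. The scaling and the rule were tested on simulated data. Levels per kb used the joined exons of GENCODE 44 on GRCh37, and ranks and ratios per kb depend on this length. In this annotation 173 members were found by symbol and 2 by an older symbol, and 11440 of 11939 genes were placed. Named genes are, in each group, the 3 highest per kb and the 3 largest called differences in each direction, all members on gained chromosomes, a list of well-known carriers, members at the edge of the rule and a list of partner genes; others are marked. A few of these are left out of the text. Members, groups and lists were chosen with earlier results of these data known. No sequences are shown, since protein sequences were not used here. Tables were handled in pandas 2.3.3 and numpy 2.4.6 under Python 3.11.15, rank correlations in scipy 1.17.1 and figures in matplotlib 3.10.9.

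Alternatives were scaling to shares of the sum, other minimum means and folds, leaving out each table, scaling outside the gained chromosomes and other gene lengths.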

Additional observations from a re-analysis of the deposited data

How the results depend on the processing

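The number of members was 185, 167 and 133 at minimum means of 5, 20 and 100, and 176 to 179 without any single table. Members higher in HCT116 (24) and in RPE1 (15) became 39 and 9 on the scale of shares of the sum (15.6% and 7.56% of all genes), 8 and 9 at a minimum mean of 100 (5.37% and 9.43% of all genes), 40 and 28 at 1.5-fold (17.3% and 18.9%), and 7 and 5 at 4-fold (3.04% and 4.15%). Without a table they were 28 to 36 (10.9% to 12.7% of all genes) and 18 to 23. The 23 (13.1%, beside 12.7% of all genes) were without the HCT116* 8/3 c7 table. Without any other single table the share of members in RPE1 stayed below that of all genes. It was 11.4%, beside 13.96%, without the HCT116 5/4 table, and 10.3%, beside 12.26%, without the RPE1* 21/3 table. These changes follow from the scale, the genes kept and the fold. On the scale of shares of the sum all 24 calls in HCT116 and 9 of the 15 in RPE1 were kept. That scale moves genes towards HCT116, by 0.35 (log2) at the median gene. It could thus lose calls only in RPE1, and could reverse none at 2-fold. Leaving out a table can only keep or widen the gap of a called gene, so no call could be lost or reversed that way. At a minimum mean of 100 the members apart within HCT116 were 5 above and 0 below, and within RPE1 0 above and 4 below. The medians on gained chromosomes kept their direction and moved by less than 0.1 (log2) under every alternative tried. The share of SLC25 genes, 35.3% per kb on average over the tables, was 22.2% when level was not divided by length, and 31.9% to 36.3% with other lengths or a minimum mean of 100. The canonical transcript, the within-type counts and the exclusion of overlapping genes were chosen after seeing the data. No paired analysis was possible because the tables hold means over the libraries and carry no replicate numbers, and for the same reason no library could be left out. The files do not give the depth of single libraries, which limits members near the minimum most.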
